A study of Glycine max with 4 samples.

Results

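The members are 3 soybean loci that the study's annotation table names, *VTC4* (Glyma07g39620) and *APX4* (Glyma02g37160) under ascorbate metabolism and *UGT* (Glyma19g03000), 1 of 3 loci with that symbol. Their locus names place them on chromosomes 7, 2 and 19. All transcript models of these loci were taken from the deposited table, which gave 5 of 55787 transcripts and 3 of 46367 loci. *VTC4* had the models Glyma07g39620.1 and Glyma07g39620.2, *APX4* had the single model Glyma02g37160.1, and *UGT* had Glyma19g03000.1 and Glyma19g03000.2. The symbols are those of the study, since the deposited table gives locus names alone. RNA was taken from leaves of soybean (Glycine max) seedlings given water (H2O), melatonin at 100 µM (Mt), NaCl at 1% (NaCl), or both (NaCl+Mt). The methods name the cultivar SuiNong 28 for the greenhouse plants, and say that the melatonin was diluted from an ethanol stock. They do not say that the water and NaCl treatments held ethanol. Differences between libraries with and without melatonin therefore cannot be told apart from differences in ethanol. The labels give the seedlings as 3 weeks old at treatment, and the results text gives 2 weeks. The time between treatment and sampling is not given in the sources used here. Each condition is 1 library, so no difference below could be set against the spread between plants, and no p-value was computed.

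Ascorbate (vitamin C) is a major water-soluble antioxidant of leaves. Plants make most of it from GDP-mannose through L-galactose, and in Arabidopsis the VTC4 enzyme removes the phosphate from L-galactose 1-phosphate on this route. The same enzyme also acts on myo-inositol phosphate. Ascorbate peroxidases use ascorbate to reduce hydrogen peroxide to water. The Arabidopsis protein named APX4 is found in the thylakoid lumen of the chloroplast. Whether the product of Glyma02g37160 has peroxidase activity cannot be read from RNA levels and was not tested here. The study annotated Glyma19g03000 as a glucuronosyltransferase, an enzyme class that moves glucuronic acid from UDP-glucuronate to an acceptor, and plant genomes hold large families of related sugar transferases.

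For independently grown plants the study designed quantitative RT-PCR primers against *APX4*. They are shown because they are sequences the study gives under this symbol, 5′ to 3′ and with no part marked. The primer table does not say which locus each pair amplifies, so that either pair amplifies Glyma02g37160 is not established here.
APX4-1 left: aacggagccgtgaaactgtc
APX4-1 right: ggaagataatatggtactacc
APX4-2 left: agtcagaagtcagtaagacc
APX4-2 right: tggaccaatacagcaaggatg
The left primers have 20 bases and the right primers 21.

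Between 22908979 and 36945028 reads per library were counted on transcript models. RPKM, the reads scaled to the length of the transcript and to the mapped reads of the library, had a library median between 3.45 and 4.54. Of 24 photosynthesis loci of the study's annotation table, 22 to 24 had an RPKM of at least 1 in each library. So did 36345 to 40186 of all 55787 transcripts, so this does not test the leaf label. The summed RPKM of the 24 photosynthesis loci was 1978 in H2O and 10431 in Mt without salt, and 6088 in NaCl and 5058 in NaCl+Mt with it. The library treated with melatonin alone stood apart in 37 cell cycle loci of the same table, which mark dividing cells. Their summed RPKM was 13.4 in H2O, 28.3 in NaCl and 24.8 in NaCl+Mt, and it was 285 in Mt. All 37 had an RPKM of at least 1 in Mt, against 3 in H2O, 7 in NaCl and 4 in NaCl+Mt, and no reads were counted for 5 in H2O, 2 in NaCl and 4 in NaCl+Mt. More were listed at an RPKM of 0, namely 21 in H2O, 14 in NaCl and 18 in NaCl+Mt, most of them with reads. The study picked both lists from these same libraries. In whole leaves, a change in the share of a cell type and a change of RNA per cell cannot be told apart.

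*APX4* was highest in the library treated with melatonin alone and lowest in the library with salt alone. Glyma02g37160.1, a model of 1044 bases, had 77 reads in H2O and 1296 in Mt without salt, and 39 in NaCl and 435 in NaCl+Mt with it. As levels, the RPKM values were 2.52, 42.7, 1.03 and 8.89 in that order. The 95% Poisson intervals of the RPKM ran from 1.99 to 3.15 in H2O and from 40.4 to 45.1 in Mt, and from 0.733 to 1.41 in NaCl and from 8.07 to 9.76 in NaCl+Mt. None of these intervals overlapped, so the order Mt, NaCl+Mt, H2O, NaCl held beyond counting error, which is the only error these intervals cover. In Mt, 93.9% of all transcripts had a lower RPKM than *APX4*, whereas in H2O 43.3% did and in NaCl 35.1%.

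In Mt:H2O, *APX4* was 16.9-fold higher in the melatonin library, with a 95% exact interval from the reads of 13.4 to 21.6. Under salt the melatonin library was also higher, by 8.62-fold in NaCl+Mt:NaCl (6.20 to 12.3). Salt went with less *APX4* RNA, by 2.45-fold in NaCl:H2O (1.64 to 3.69) and by 4.80-fold in NaCl+Mt:Mt (4.30 to 5.37). With both treatments the level stayed above that of water, by 3.52-fold in NaCl+Mt:H2O (2.76 to 4.55). Among the 41781 transcripts with an RPKM of at least 1 in Mt or H2O, 2271 had a larger log2 difference than *APX4* in Mt:H2O. In NaCl+Mt:NaCl, 908 of 38389 did. In Mt, the high *APX4* value went with high sums of the cell cycle and photosynthesis loci given above. Under salt alone *APX4* was lower than in water, while both sums were higher. In NaCl:H2O, where *APX4* was lower, 14 of the 23 photosynthesis loci tested were called higher and 2 lower. Of the 37 cell cycle loci, 7 were tested in NaCl:H2O, of which 4 were called higher and 0 lower. Only 3 of the 37 had an RPKM of at least 1 in H2O, against 7 in NaCl. Most of those tested thus passed the minimum only through NaCl, where they are high, so their calls do not test a direction. The shares over all 30032 loci were 7.61% higher and 12.3% lower. The part of these cell markers in the *APX4* value was not tested. In NaCl+Mt:NaCl, where *APX4* was higher, 5 of the 24 photosynthesis loci were called higher at a fold of 2 and 1 was called lower, against 10.7% and 4.82% of the 30009 loci tested, with 1 transcript for each locus. Their lower sum in NaCl+Mt was mostly that of 1 small-subunit Rubisco locus (*rbcS*, Glyma13g07610), at an RPKM of 3530 in NaCl and 2781 in NaCl+Mt. Of the 8 cell cycle loci tested there, 0 were called higher and 1 lower. These loci too passed the minimum mostly through NaCl, where 7 of the 37 had an RPKM of at least 1, against 4 in NaCl+Mt.

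*VTC4* had a different order, with its highest level in water and almost no reads under salt alone. Glyma07g39620.1, the model with more reads, had 130 reads in H2O and 60 in Mt, whereas NaCl held 4 reads and NaCl+Mt held 91. The deposited RPKM levels were 5.47, 2.54, 0 and 2.39 in that order. The value of 0 was listed although 4 reads were counted, and 555 of the 760 transcripts with 4 reads in NaCl were listed in the same way. From the counts, the RPKM in NaCl was 0.136, with a Poisson interval of 0.037 to 0.348. The intervals of Mt (1.94 to 3.27) and NaCl+Mt (1.92 to 2.93) overlapped, so these 2 libraries did not differ beyond counting error.

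The second model, Glyma07g39620.2, had 40 reads in H2O and 24 in Mt, whereas NaCl held 3 and NaCl+Mt held 42. Its RPKM from the counts was 1.84, 1.11, 0.111 and 1.20 in the same order of libraries. The order of the libraries was not separable among H2O, Mt and NaCl+Mt for this model, whose intervals overlapped, and NaCl was below all of them. The model made up 23.5% of the reads of the locus in H2O and 28.6% in Mt, and under salt 42.9% in NaCl and 31.6% in NaCl+Mt. With 7 reads at the locus in NaCl, the 95% Clopper-Pearson interval of its share there was 9.9% to 81.6%, so a shift between the models was not detectable at this depth.

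In NaCl:H2O, Glyma07g39620.1 was 40.3-fold lower in the salt library, with an interval of 15.4 to 150 that reflects the 4 reads. Glyma07g39620.2 was 16.5-fold lower (5.26 to 83.5) on 3 reads, at the floor of 3 counts. With melatonin added to salt more reads were present, and in NaCl+Mt:NaCl the models were 17.6-fold (6.63 to 65.9) and 10.8-fold (3.46 to 54.5) higher. Without salt the direction was the opposite. In Mt:H2O, Glyma07g39620.1 was 2.16-fold lower in the melatonin library (1.58 to 2.98), and Glyma07g39620.2 had a ratio of 0.603 with an interval of 0.348 to 1.02 that includes no difference. In NaCl+Mt:Mt the ratios were 0.941 (0.672 to 1.33) and 1.09 (0.643 to 1.87), so no difference was detectable. In NaCl+Mt:H2O, Glyma07g39620.1 was 2.29-fold lower (1.74 to 3.03), and Glyma07g39620.2 had a ratio of 0.655 (0.414 to 1.04). With the reads of both models added, the locus was 2.01-fold lower in Mt:H2O (1.54 to 2.65) and 30.1-fold lower in NaCl:H2O (14.3 to 76.0). A read placed on both models would be counted more than once in such sums, and the sources used here do not say how such reads were assigned.

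**Figure D1:**
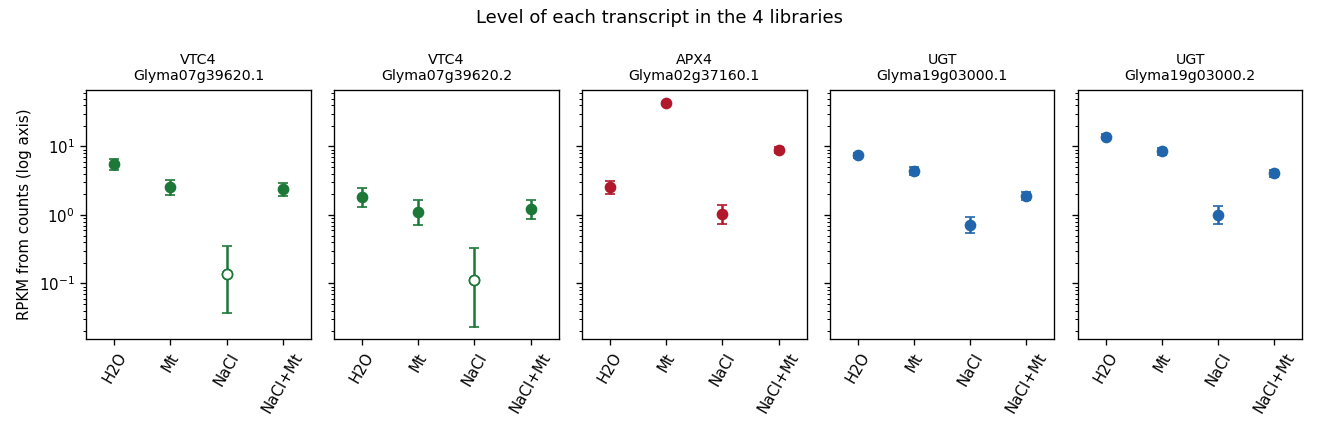
RPKM computed from the deposited counts (log axis) of the 5 transcripts in the 4 libraries, with 95% Poisson intervals of the counts as bars; open points mark values that the deposited table lists at 0. *APX4* is highest in Mt at 42.7, the *VTC4* and *UGT* models are highest in H2O, and every transcript is lowest in NaCl.

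*UGT* was also highest in water and lowest under salt alone, with more reads behind each value. Glyma19g03000.1, a model of 2136 bases, had 461 reads in H2O and 273 in Mt without salt, 56 in NaCl and 189 in NaCl+Mt with it, and RPKM levels of 7.38, 4.39, 0.724 and 1.89. Glyma19g03000.2, of 1365 bases, had 550, 338, 50 and 258 reads, and RPKM levels of 13.8, 8.51, 1.01 and 4.03. The order of the libraries was H2O, Mt, NaCl+Mt and NaCl for each model, and no interval of a model overlapped with that of its neighbour in this order. The share of the locus's reads on Glyma19g03000.2 was 54.4% in H2O (51.3% to 57.5%) and 55.3% in Mt (51.3% to 59.3%), and under salt 47.2% in NaCl (37.4% to 57.1%) and 57.7% in NaCl+Mt (53.0% to 62.3%). All 4 Clopper-Pearson intervals overlapped, which does not show that the shares were equal. Whether the models differed in how they followed the treatments was not tested.

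In NaCl:H2O, Glyma19g03000.1 was 10.2-fold lower in the salt library (7.72 to 13.7) and Glyma19g03000.2 was 13.6-fold lower (10.2 to 18.6). In NaCl+Mt:NaCl they were 2.61-fold (1.93 to 3.58) and 3.99-fold (2.94 to 5.51) higher. These levels under both treatments stayed below those of water, by 3.91-fold (3.30 to 4.66) and 3.42-fold (2.94 to 3.98) in NaCl+Mt:H2O. Melatonin alone went with lower levels, by 1.68-fold (1.44 to 1.96) and 1.62-fold (1.41 to 1.86) in Mt:H2O, which is under the fold of 2 used for a call. In NaCl+Mt:Mt the library with salt was lower by 2.33-fold (1.93 to 2.82) and 2.11-fold (1.79 to 2.49).

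The study listed 2 further loci under *UGT*. Glyma03g03840.1 had 66 reads in H2O and 6 in Mt, whereas NaCl held 12 and NaCl+Mt held 68. It was 10.9-fold lower in Mt:H2O (4.77 to 30.9) and 4.38-fold higher in NaCl+Mt:NaCl (2.35 to 8.89). Glyma01g02740.1 had 42, 41, 4 and 56 reads in these libraries. All 3 *UGT* loci thus had fewer reads per mapped read in NaCl than in H2O, and none was higher in Mt than in H2O. At a fold of 2, 3 of 3 were called lower in NaCl:H2O, against 12.3% of the 30032 loci tested. In Mt:H2O, 0 were called higher and 1 lower, against 23.4% and 12.7% of 33134. The study chose these loci on the same libraries, so these counts are no independent evidence of a direction. For Glyma01g02740.1 the ratio of 0.981 in Mt:H2O had an interval of 0.622 to 1.55.

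**Figure D2:**
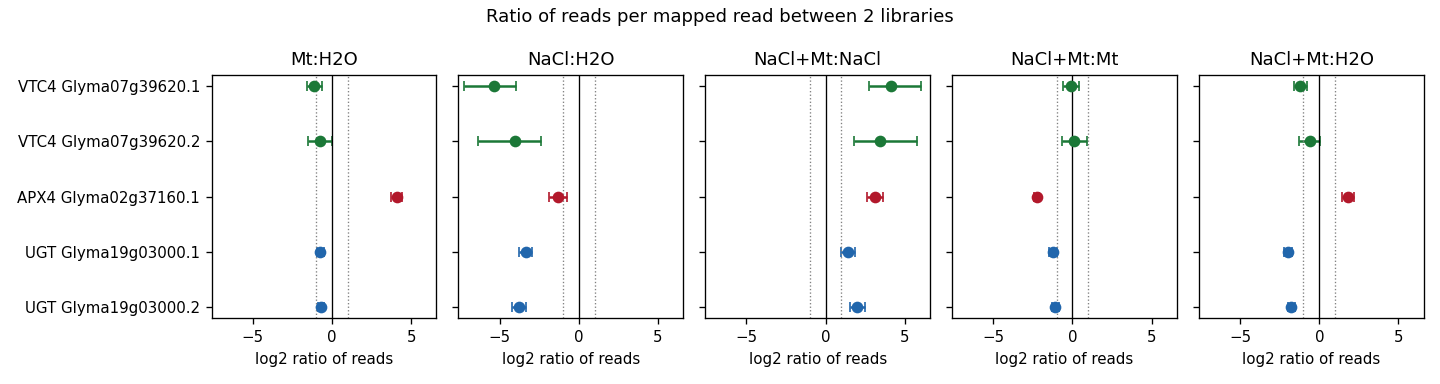
Log2 ratio of reads per mapped read for the 5 transcripts in 5 comparisons of 2 libraries each, with 95% exact intervals from the reads as bars; dotted lines mark a fold of 2 in either direction. In NaCl:H2O all 5 points lie below 0 and in NaCl+Mt:NaCl all 5 lie above it, whereas in Mt:H2O *APX4* alone lies above 0, at 4.08.

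A transcript was called higher or lower at a 2-fold or larger difference of RPKM + 0.1, provided that either library of the comparison had an RPKM of 1 or more. All 5 transcripts passed this minimum in every comparison. In NaCl:H2O, 5 of 5 were called lower, against 11.4% of the 38405 transcripts tested, and 0 were called higher, against 7.31%. In NaCl+Mt:NaCl, 5 of 5 were called higher, against 9.86% of 38389, and 0 were called lower, against 4.43%. These comparisons share the NaCl library, in which the 5 transcripts were at their lowest, as were 30.2% of the 42311 transcripts with an RPKM of at least 1 in some library. The 5 transcripts come from 3 loci, and the models of a locus are not independent of each other. From the same libraries the study reported *VTC4*, *APX4* and a UDP-glucuronosidase gene as raised by melatonin. Its discussion words this for *VTC4* and *APX4* as without salt, with salt or both. In Mt:H2O here, *APX4* was higher, while Glyma07g39620.1 and both *UGT* models were lower. As the libraries are the same, these counts are no independent evidence of a direction.

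In Mt:H2O, *APX4* was the 1 member called higher, where 21.2% of 41781 transcripts were, and Glyma07g39620.1 was the 1 called lower, where 12.5% were. With so few members, the counts called in Mt:H2O cannot be told apart from these background shares. In NaCl+Mt:Mt, *APX4* and both *UGT* models were called lower, against 19.4% of 41573 transcripts, and 0 were called higher, against 10.4%. In NaCl+Mt:H2O, *APX4* was called higher, against 4.92% of 38305, and Glyma07g39620.1 and both *UGT* models were called lower, against 3.62%. The call of Glyma07g39620.1 in Mt:H2O was near the threshold, with a log2 difference of RPKM + 0.1 of -1.08, and with its reads added to those of the second model the value was -0.99. The log2 difference of Glyma19g03000.2 in NaCl+Mt:Mt was -1.06, and -0.96 with median-of-ratios scaling.

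Mt:H2O and NaCl+Mt:NaCl, which share no library, both give the melatonin difference, without and with salt. *APX4* was called higher in each, as were 2.55% of the 37859 transcripts tested in both. Glyma07g39620.1 was called lower in the first and higher in the second, as were 3.76%. The difference between the log2 ratios of reads, with salt minus without, was 5.24 for Glyma07g39620.1 (counting standard error 0.771), 4.17 for Glyma07g39620.2 (0.939), 2.13 for Glyma19g03000.1 (0.246), 2.69 for Glyma19g03000.2 (0.244) and -0.97 for *APX4* (0.295).

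**Figure D3:**
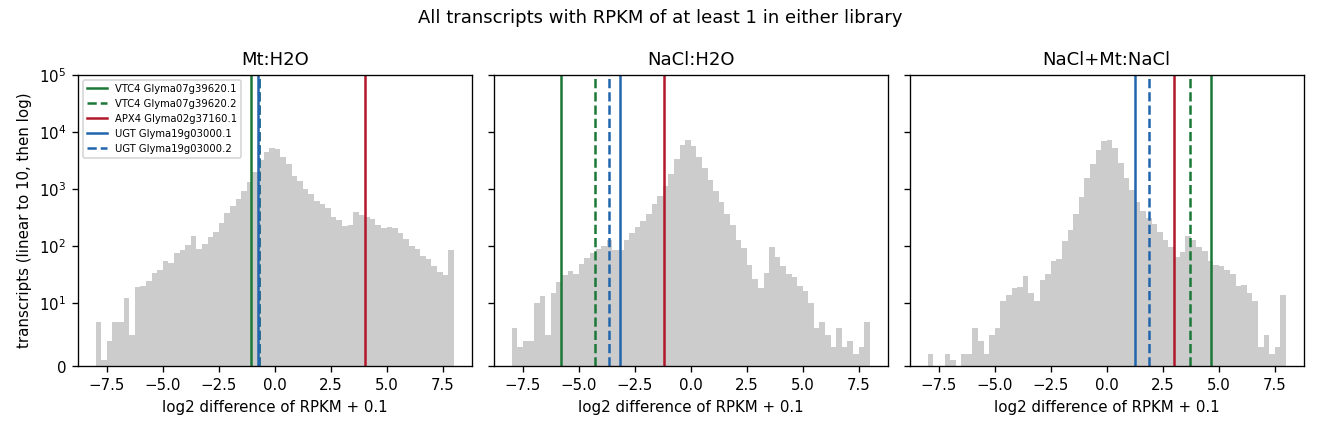
Number of transcripts (vertical axis, linear to 10 and then log) by log2 difference of RPKM + 0.1 in 3 comparisons, for transcripts with an RPKM of at least 1 in either library; the outermost bars hold all values beyond 8, and vertical lines mark the 5 members. In NaCl:H2O, 78 transcripts lie below Glyma07g39620.1, whose value of -5.80 rests on the listed RPKM of 0 and was -4.56 with RPKM from the counts.

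Loci around these steps in the study's annotation table were examined as lists, with each locus represented by the transcript of highest mean RPKM. The study chose these lists on the same libraries, so their counts are no independent evidence of a direction. A locus can also pass the RPKM minimum only through the library where it is high, so the filter itself favours calls in that direction. The enzymes that supply hexose phosphate to nucleotide sugars, hexokinase (*HK*), fructokinase (*scrK*) and phosphoglucomutase (*PGM*), had 6 loci. In Mt:H2O, 4 of 6 were called higher and 0 lower, against 23.4% and 12.7% of all 33134 loci tested, with a median log2 of 2.86 beside 0.09 over all loci. In NaCl:H2O, 1 of 3 tested was called higher and 1 lower, against 7.61% and 12.3% of all loci. In NaCl+Mt:NaCl, 2 of 5 were called higher and 1 lower, against 10.7% and 4.82%. *HK* (Glyma11g10130) had 42 reads in H2O and 379 in Mt without salt, and 24 in NaCl and 159 in NaCl+Mt with it. Its order of libraries by RPKM was also that of *APX4*, and other listed loci, such as *scrK* Glyma12g05580, had this order too. One *scrK* locus, Glyma15g03430, had 232, 265, 39 and 393 reads, with a log2 difference of -2.77 for NaCl:H2O and of 2.85 for NaCl+Mt:NaCl. *PGM* (Glyma10g38590), which interconverts glucose 1-phosphate and glucose 6-phosphate, went the other way under salt, with RPKM levels of 50.6 in H2O and 43.3 in Mt, but 307 in NaCl and 102 in NaCl+Mt.

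Galacturonosyltransferases (*GAUT*), which build pectin from UDP-galacturonate, and pectin esterases made up a list of 17 loci. In Mt:H2O, 15 of the 16 tested were called higher and 0 lower, with a median log2 of 2.70, beside the same shares over all loci. In NaCl:H2O, 3 of 12 were called higher and 2 lower, against 7.61% and 12.3% of 30032 loci. Of those called higher, Glyma06g41630.1 and Glyma12g16550.1 passed the minimum only through NaCl. In NaCl+Mt:NaCl, 4 of 13 were called higher and 0 lower, against 10.7% and 4.82%. By the listed RPKM the largest log2 in Mt:H2O was 6.73 for Glyma19g41950.1, with 10 reads in H2O, which the table lists at 0, and 466 in Mt. With RPKM from the counts, a choice added after the values were seen, it was 5.03, below the 5.76 of Glyma19g40020.1. The highest mean RPKM was also that of Glyma19g40020.1, with levels of 1.37 in H2O and 79.9 in Mt, and of 2.57 in NaCl and 2.05 in NaCl+Mt. In NaCl:H2O the lowest log2 of the list was -3.75, for Glyma06g47200.1, which also had the highest in NaCl+Mt:NaCl, at 3.87. Thus most loci of this list were higher in Mt as *APX4* was, while *VTC4* and *UGT* were not.

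**Figure D4:**
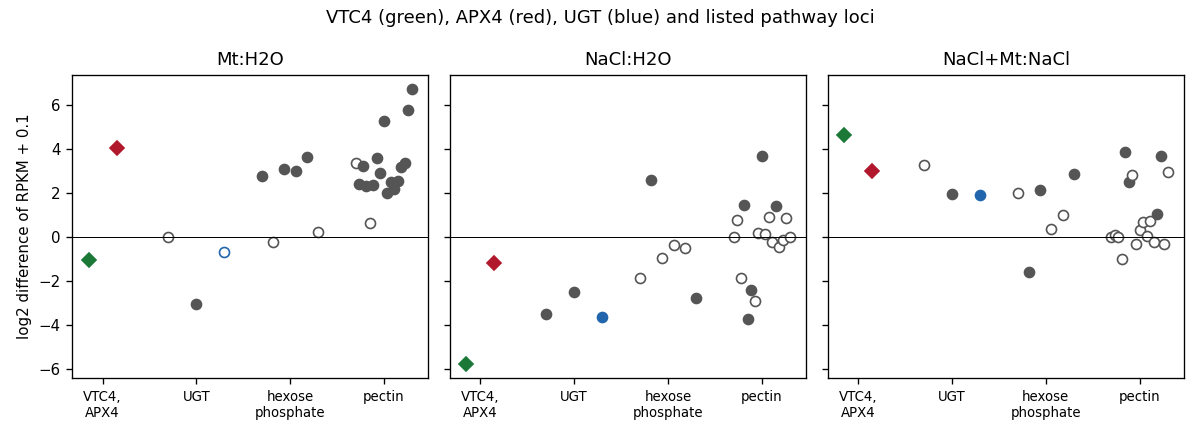
Log2 difference of RPKM + 0.1 in 3 comparisons for *VTC4* (green), *APX4* (red), the 3 *UGT* loci (Glyma19g03000 in blue), 6 hexose phosphate loci and 17 pectin loci, 1 point per locus; filled points were called and open points were not. In Mt:H2O *APX4* lies among the pectin and hexose phosphate loci called higher, and in NaCl:H2O the 3 *UGT* loci and *VTC4* lie below -2.

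The transcripts whose pattern over the 4 libraries was most like that of each locus were found by the Euclidean distance between log2(RPKM + 0.1) values, each centred on its own mean, among 38249 transcripts for *VTC4* and *APX4* and 38248 for *UGT*. With 4 libraries, such likeness is a description. It also depends on the listed values of 0, so the same distance was taken with RPKM from the counts, a choice added after the values were seen. Closest to *APX4* by the listed RPKM were Glyma20g34340.1 (distance 0.352), Glyma16g04950.2 (0.363) and Glyma03g33840.2 (0.391). Glyma20g34340.1 had 105 reads in H2O and 1552 in Mt without salt, and 52 in NaCl and 733 in NaCl+Mt with it. From the counts, 2 of these 3 stayed among the closest 3, behind Glyma10g39110.1 (0.304). Closest to *VTC4* were Glyma03g00800.1 (0.215), Glyma06g18370.1 (0.524) and Glyma03g04920.1 (0.671). Of these, Glyma03g04920.1 had the most reads, with 3275 in H2O and 1627 in Mt, and 120 in NaCl and 3748 in NaCl+Mt, whereas the other two, with 4 and 12 reads in NaCl, were listed at an RPKM of 0 there, as *VTC4* was. From the counts only 1 of the 3 stayed, Glyma03g00800.1 (0.409), between Glyma10g00220.1 (0.278) and Glyma01g26840.2 (0.426). Glyma10g00220.1 had 1096 reads in H2O and 466 in Mt, whereas NaCl held 48 and NaCl+Mt held 903. Closest to *UGT* were Glyma17g08090.1 (0.332), Glyma15g15370.1 (0.424) and Glyma13g25260.1 (0.509), of which the first had 930, 569, 102 and 579 reads. From the counts 2 of these 3 stayed, with Glyma05g30850.1 (0.400) as the new one. None of the transcripts of like pattern belongs to the lists examined here, and their annotation outside these lists was not examined.

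**Figure D5:**
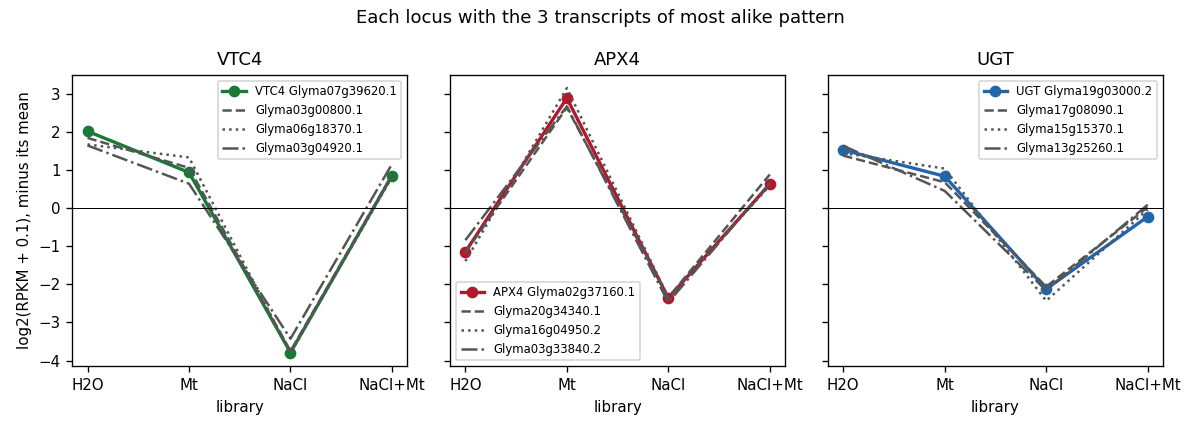
Log2(RPKM + 0.1) minus its mean over the 4 libraries for *VTC4*, *APX4* and *UGT* (coloured, with points) and for the 3 transcripts of most alike pattern by the listed RPKM (grey lines). The *APX4* group peaks in Mt, the *VTC4* and *UGT* groups start highest in H2O, and all lie lowest in NaCl.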

How the data were processed

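One library of leaf RNA was sequenced for each of 4 conditions. Per the methods and the labels, adaptors and poor reads were discarded by the authors, who then used BWA 0.7.4 to map to the soybean genome of PlantGDB and computed RPKM. The build version is not given in the sources used here. The deposited table gives the length of each transcript model, with a read count and an RPKM per library by the authors. The RPKM equalled counts divided by length and by a constant of 29090307 to 46886156 reads per library, except that 4628 to 5430 transcripts per library had reads but an RPKM of 0. Lengths were multiples of 3 for 95.8% of models and are mostly coding length, so reads in UTRs may not be counted. Soybean holds many duplicated genes, and counts could be split between near-identical copies.

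Ratios of reads per mapped read were computed with 95% exact binomial (Clopper-Pearson) intervals, and levels with exact Poisson intervals. Since PCR copies cannot be told from separate molecules here, intervals cover counting error only. The floor was 3 counts, an RPKM of 0.064 to 0.103 for a model of 1 kilobase. Calls used a pseudocount of 0.1, an RPKM of at least 1 and a fold of 2. Locus lists were those of the study's annotation table. Members and lists were chosen with earlier results of these data known. Named were all member transcripts, the other *UGT* loci, the listed loci with the highest mean RPKM or the largest difference, and the 3 transcripts of most alike pattern per locus. *HK* was named after its values were seen. No locus matched the RefSeq table by name (0 of 46367). Alternatives were pseudocounts of 0.01 and 1, no filter or an RPKM of 5, a fold of 4, median-of-ratios scaling, RPKM from the counts, and 1 transcript or summed counts per locus. Distances of patterns from counts were added after the data were seen. Python 3.11.15, pandas 2.3.3 and SciPy 1.17.1 were used. The calls and intervals were run on simulated counts with Poisson error only. Such counts hold no spread between plants, so this run does not show how the calls behave under it.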

Additional observations from a re-analysis of the deposited data

Results flagged for a closer look

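The melatonin difference had opposite signs without and with salt for 3 of the 5 transcripts, with each ratio's counting interval away from no difference. The share of all transcripts under this rule was not computed, so whether the count is unusual cannot be said. At the fold of 2 used for calls, 3.76% of 37859 transcripts were lower without salt and higher with it. Glyma07g39620.1 was among them, and neither *UGT* model was. For Glyma07g39620.1 (*VTC4*) the log2 ratio of reads was -1.11 for Mt:H2O but 4.14 for NaCl+Mt:NaCl, a difference of 5.24. For Glyma19g03000.1 (*UGT*) the values were -0.75 and 1.38, a difference of 2.13. For Glyma19g03000.2 they were -0.70 and 1.995, a difference of 2.69. With 1 library per condition these differences were not tested, and the *VTC4* value rests on 4 reads in NaCl.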

How the results depend on the processing

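Each comparison rests on 1 library per side, so no library could be left out. No paired analysis was possible because there are no replicates. The number of the 5 transcripts called in either direction, which was 2 in Mt:H2O, 5 in NaCl:H2O, 5 in NaCl+Mt:NaCl, 3 in NaCl+Mt:Mt and 4 in NaCl+Mt:H2O, moved with the thresholds. The share of all transcripts called either way was 33.7%, 18.7%, 14.3%, 29.8% and 8.55% in these comparisons. A fold of at least 4 gave 1 member in Mt:H2O (16.6% of all), 3 in NaCl+Mt:NaCl (4.86%), 1 in NaCl+Mt:Mt (13.7%) and 0 in NaCl+Mt:H2O (1.93%). A pseudocount of 1 gave 1 in Mt:H2O (28.4%) and 1 in NaCl+Mt:Mt (23.9%). An RPKM of at least 5 gave 3 for NaCl:H2O (16.6%) but 1 for NaCl+Mt:NaCl (11.5%). One transcript per locus gave 3 of 3 loci for each of NaCl:H2O (19.9% of all loci) and NaCl+Mt:NaCl (15.5%), and summed counts gave the same numbers there (19.7% and 15.4%) and 1 in Mt:H2O (35.8%). Of 90 alternative log2 values for the 3 loci, 80 differed from the reported value by less than the distance from the ratio of reads to its 95% bound on that side, 10 by more, and 0 called values changed sign. The *VTC4* log2 in NaCl:H2O ranged from -9.10 (pseudocount 0.01) to -2.69 (pseudocount 1), since it compares against 4 reads listed at 0. *APX4* in NaCl:H2O was -0.79 with a pseudocount of 1, under the fold used for a call. Median-of-ratios scaling moved the median of all transcripts in NaCl:H2O from -0.12 to 0.00.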
